A study of Drosophila melanogaster with 8 samples.

Results

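Homeobox genes encode transcription factors that bind DNA through a homeodomain. A set of 48 of them, chosen by name, was read in RNA from sorted Drosophila clock neurons, out of 17868 genes in each gene table. The set holds 8 Hox genes, 8 genes of the paired-like and Pax6 group (with the head gap gene ems), 2 sine oculis class, 4 POU and 2 CUT genes, 10 NK, Bar, Engrailed and related genes, 5 LIM, 7 TALE and 2 zinc finger homeodomain genes. Membership rests on the names and no measured value set it, but the names were chosen with earlier results of these data known. The data are 8 polyadenylated RNA libraries, 2 at each of circadian times (CT) 0, 6, 12 and 18 h.

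All 8 libraries came from 1 genotype, in which ClkGAL4 and UAS-GFP-NLS on 1 homolog stood over UAS-mor-RNAi (stock BDSC#34919) on the other. Clk-GAL4 thus drove both a nuclear green fluorescent protein and an RNA interference construct against mor, whose product is part of the core of the Brahma complex, a remodeller of chromatin. Flies lived in cycles of 12 h light and 12 h dark for 5 days and were collected from constant darkness on its day 2. From adult brains, about 2000 cells that carried the fluorescent protein and excluded the dead-cell dye DAPI were sorted for each library. The sorted cells are those in which Clk-GAL4 was active, so each library mixes several kinds of clock neuron and any other cell the driver marks. Control libraries were not analysed here. Every result below therefore describes the knockdown genotype, and none compares it with wild type. Whether the replicates share a fly stock, a day or a sort is not said in the labels, so a p-value here speaks for the spread among these 8 libraries and nothing wider.

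In flies, Hox genes give segments of the body axis their identity, while genes of the Pax6, sine oculis, LIM, POU and related classes are used in combinations to specify neurons in the brain. Many keep being transcribed in mature neurons, where they maintain the transmitter, peptide and wiring choices of the cell type. Exd and Hth, of the TALE class, act as partners of other homeodomain proteins, and Hth is needed for Exd to enter the nucleus.

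Estimated counts per library totalled 15006258 to 29346348, and 3 counts, taken as the floor of detection, equal 0.102 to 0.2 CPM (counts scaled to library size). This floor covers counting error only. The targeted gene mor was read in all 8 libraries, at 3.07 and 3.68 TPM (a level corrected for transcript length and library size) at CT0, 7.17 and 1.96 TPM at CT6, 3.43 and 3.82 TPM at CT12 and 1.15 and 1.20 TPM at CT18, which cannot check the knockdown without control flies. All 13 clock neuron markers and all 5 neuron markers listed reached 1 TPM in every library. The 9 glial markers summed to 85.1 to 210.0 TPM, with nrv2 and Gs2 averaging 60.9 and 50.8 TPM, and the glia-defining homeobox gene repo lay at 0 to 0.261 TPM. The repo gene shares 183 exon bases with the opposite-strand gene CG7156, which averaged 13.5 TPM. Reads in those bases may belong to either gene. One library stood apart: in CT6 replicate 1, counts relative to the other libraries followed effective gene length (Spearman correlation over genes 0.684, against -0.563 to 0.468 in the other 7), and Pdf, the neuropeptide gene of the ventral lateral clock neurons, had 292 TPM against 4590 to 93400 TPM elsewhere.

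Of the 48 homeobox genes, 20 were read at 1 TPM or more in all 8 libraries and are called detected here, or 41.7%. The same threshold was met by 40.0% of all genes in the tables, and by 53.0% of the 13499 genes with any count. Mean levels reached 50 TPM in 4 members, lay between 10 and 50 TPM in 6 and between 1 and 10 TPM in 18, and stayed under 1 TPM in 20. The members just inside the threshold were zfh1 and vvl, whose lowest libraries had 1.10 and 1.28 TPM, and those just outside were acj6 and nub, with 0.965 and 0.615 TPM. In bulk samples, fewer cells of a type and less RNA per cell cannot be told apart, so a low level may belong to a few cells.

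The level was concentrated in a few genes. The members together took up 746 to 1049 TPM per library, and exd, hth, toy and Lim1 made up 71.9% to 84.3% of that sum. Seen by class, summed levels averaged 498 TPM for the TALE genes, 150.3 TPM for the paired-like and Pax6 genes and 116 TPM for the LIM genes. The NK, Bar and Engrailed group averaged 47.4 TPM, the CUT genes 29.0 TPM, the zinc finger homeodomain genes 15.3 TPM, the sine oculis class genes 9.15 TPM and the POU genes 8.57 TPM. The 8 Hox genes together averaged 3.34 TPM and none of them was detected.

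**Figure D1:**
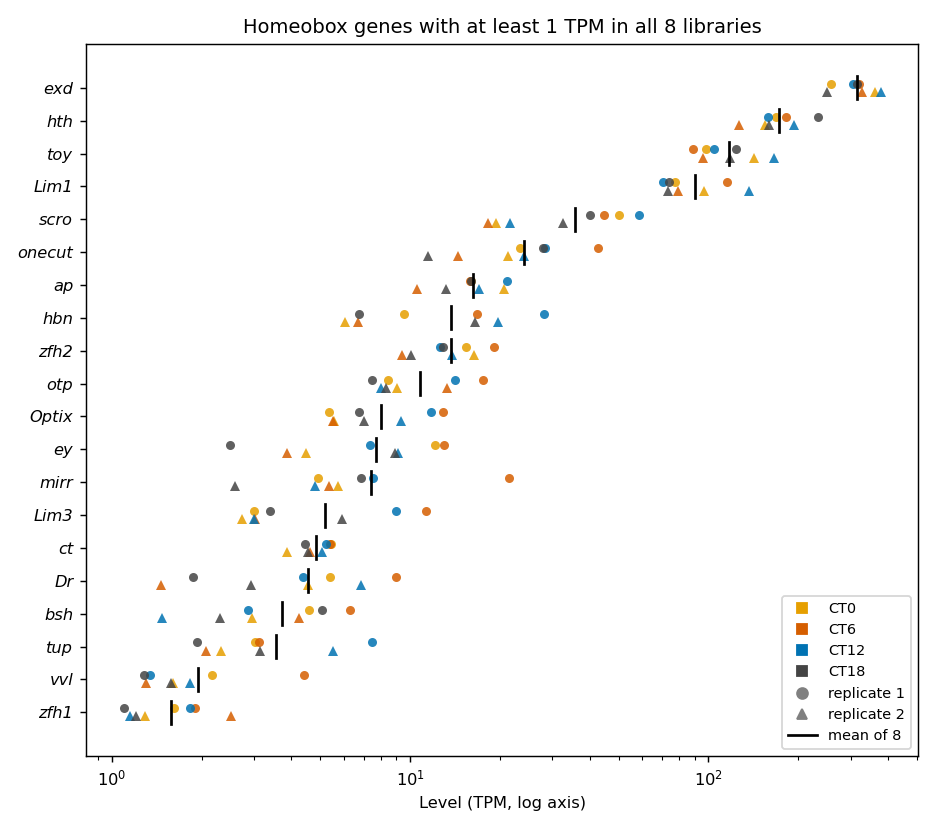
Levels of the 20 detected homeobox genes in TPM on a log axis, ordered by mean. Each point is 1 library, coloured by circadian time and shaped by replicate number, and the black bar is the mean of 8. The genes run from a mean of 315 TPM for exd to 1.57 TPM for zfh1, and the scro points of replicate 2 lie left of the replicate 1 points.

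Transcripts for the TALE cofactors were the most abundant of the set. The level of exd (extradenticle, X 15992468 to 15996509), the fly Pbx protein, was 258 and 363 TPM at CT0 (replicates 1 and 2, as in all such lists here), 319 and 329 TPM at CT6, 305 and 378 TPM at CT12 and 316 and 250.1 TPM at CT18. It averaged 315 ± 44.9 TPM (SD, n = 8) and ranked 545 among all genes. Its highest library had 1.51 times the level of its lowest. The level of hth (homothorax, 3R 10507561 to 10639568), the Meis-type partner that brings Exd into the nucleus, was 169 and 155 TPM at CT0, 182 and 127 TPM at CT6, 159 and 194 TPM at CT12 and 232 and 160.1 TPM at CT18. The average was 172 ± 31.4 TPM, and exd was above hth in 8 of 8 libraries. An antisense RNA gene, asRNA:CR44018, shares 207 exon bases with hth and averaged 3.50 TPM. The sources used here do not give whether reads were counted by strand.

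The Iroquois genes mirr, ara and caup, TALE genes that pattern the eye and other tissues, stand side by side on 3L between 12580672 and 12710249, and mirr alone of them was detected. Its level was 4.91 and 5.73 TPM at CT0, 21.5 and 5.35 TPM at CT6, 7.53 and 4.82 TPM at CT12 and 6.83 and 2.58 TPM at CT18, so CT6 replicate 1 was far above the other libraries. Mean levels were 1.39 ± 0.681 TPM for caup and 0.567 ± 0.497 TPM for ara, and caup was the higher in 7 of 8 libraries. The adjacent genes achi and vis, 918 bases apart on 2R, encode TGIF-type proteins known from spermatogenesis. They averaged 1.05 and 0.190 TPM, values that are uncertain because the genes are near-identical copies.

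Both fly Pax6 genes were detected, at unequal levels. The toy gene (twin of eyeless, 4 989725 to 1007922), which acts upstream of ey in eye development, had 98.3 and 142 TPM at CT0, 89.0 and 95.8 TPM at CT6, 104 and 166 TPM at CT12 and 124 and 118 TPM at CT18. For ey (eyeless, 4 697689 to 721173), also a marker of mushroom body Kenyon cells, the levels were 12.1 and 4.49 TPM at CT0, 13.0 and 3.87 TPM at CT6, 7.33 and 9.12 TPM at CT12 and 2.50 and 8.92 TPM at CT18. Average levels were 117 ± 26.2 TPM for toy and 7.66 ± 3.83 TPM for ey, 15.3 times lower, and toy was the higher in 8 of 8 libraries. The other 6 Kenyon cell markers listed summed to 439 to 1023 TPM, most of it sNPF, which clock neurons also make, at 304 to 961 TPM. Of the rest, mub averaged 79.9 TPM, prt 26.4 TPM, Dop1R2 4.25 TPM, dac 0.818 TPM and rut 0.432 TPM. Their part in the ey level was not tested.

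The paired-like genes hbn, Rx and otp lie next to each other on 2R between 20883625 and 20960909, and each is known from development of the embryonic brain. Of the 3, hbn and otp were detected and Rx was not, with a mean of 0.357 TPM and a highest library of 1.54 TPM. The hbn gene (homeobrain) was at 9.58 and 6.06 TPM at CT0, 16.7 and 6.70 TPM at CT6, 28.0 and 19.7 TPM at CT12 and 6.75 and 16.5 TPM at CT18. The otp gene (orthopedia), whose vertebrate relative specifies neuroendocrine neurons, was at 8.43 and 9.04 TPM at CT0, 17.6 and 13.3 TPM at CT6, 14.1 and 7.99 TPM at CT12 and 7.48 and 8.30 TPM at CT18. The head gap genes oc and ems averaged 0.444 and 0.0179 TPM.

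Of the 5 LIM homeobox genes, 4 were detected. Lim1 (X 8756539 to 8805804), known from antenna and leg development, had 77.6 and 96.6 TPM at CT0, 116 and 79.2 TPM at CT6, 70.7 and 137 TPM at CT12 and 73.7 and 73.5 TPM at CT18. The level of ap (apterous, 2R 5706202 to 5727525), the dorsal selector gene of the wing and a regulator of peptidergic neurons, was 16.0 and 20.7 TPM at CT0, 15.9 and 10.5 TPM at CT6, 21.1 and 17.0 TPM at CT12 and 16.1 and 13.2 TPM at CT18. Both were read in every library, and their highest libraries had 1.94 and 2.01 times the lowest. The motor neuron identity genes Lim3 and tup (the fly islet gene) averaged 5.18 ± 3.30 and 3.57 ± 1.93 TPM. Awh averaged 0.712 TPM and passed 1 TPM in 2 libraries.

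Among the NK and related genes, scro led. The level of scro (scarecrow, 3L 24724162 to 24758036), an NK2 gene reported to repress Pdf in clock neurons, was 50.2 and 19.4 TPM at CT0, 44.6 and 18.3 TPM at CT6, 58.6 and 21.7 TPM at CT12 and 40.1 and 32.5 TPM at CT18. Dr (the fly msh gene) acts in the dorsal part of the embryonic neuroectoderm. Its level was 5.38 and 4.56 TPM at CT0, 9.01 and 1.47 TPM at CT6, 4.38 and 6.87 TPM at CT12 and 1.87 and 2.93 TPM at CT18. For bsh, a gene of optic lobe neurons, the values were 4.59 and 2.96 TPM at CT0, 6.29 and 4.26 TPM at CT6, 2.87 and 1.47 TPM at CT12 and 5.05 and 2.31 TPM at CT18. In TPM the scro values of replicate 2 were all below those of replicate 1, whereas those of Dr and bsh overlapped between replicate numbers. The other 7 genes of the group (unpg, eve, B-H1, B-H2, vnd, inv and en) averaged 0.0351 to 1.26 TPM. The segment polarity pair inv and en, neighbours on 2R, passed 1 TPM in CT6 replicate 1 alone, at 2.43 TPM for inv and 1.38 TPM for en. In the other 7 libraries both stayed at or under 0.204 TPM.

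Both CUT genes were detected. The onecut gene (4 598555 to 607649), a neuronal gene with a single cut domain, had 23.3 and 21.4 TPM at CT0, 42.7 and 14.4 TPM at CT6, 28.3 and 24.05 TPM at CT12 and 27.9 and 11.5 TPM at CT18. The level of ct (cut), which sets dendrite and sense organ type, had the smallest ratio of highest to lowest library among the detected members. It averaged 4.83 ± 0.548 TPM, with 3.88 TPM in its lowest library and 5.45 TPM in its highest, a ratio of 1.40.

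Related genes were read at unequal levels elsewhere too. Optix, the fly relative of vertebrate Six3 and Six6, had 5.35 and 5.56 TPM at CT0, 12.9 and 5.52 TPM at CT6, 11.7 and 9.33 TPM at CT12 and 6.76 and 6.99 TPM at CT18, and its relative so averaged 1.13 ± 0.709 TPM and was at 0 in CT18 replicate 1. Levels of the zinc finger homeodomain gene zfh2 were 15.4 and 16.4 TPM at CT0, 19.1 and 9.39 TPM at CT6, 12.6 and 13.8 TPM at CT12 and 12.9 and 10.04 TPM at CT18, while zfh1 averaged 1.57 ± 0.491 TPM. In both pairs the first gene was the higher in 8 of 8 libraries, by 7.11 times for Optix and 8.70 times for zfh2. The zfh2 level is uncertain, since the gene shares 2325 exon bases with the opposite-strand gene Thd1, at 19.4 TPM. Of the POU genes, which include the olfactory neuron gene acj6, vvl averaged 1.94 TPM, acj6 2.68 TPM, nub 2.46 TPM and pdm2 1.49 TPM. Only vvl of these was detected, and nub was above pdm2 in 6 of 8 libraries.

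**Figure D2:**
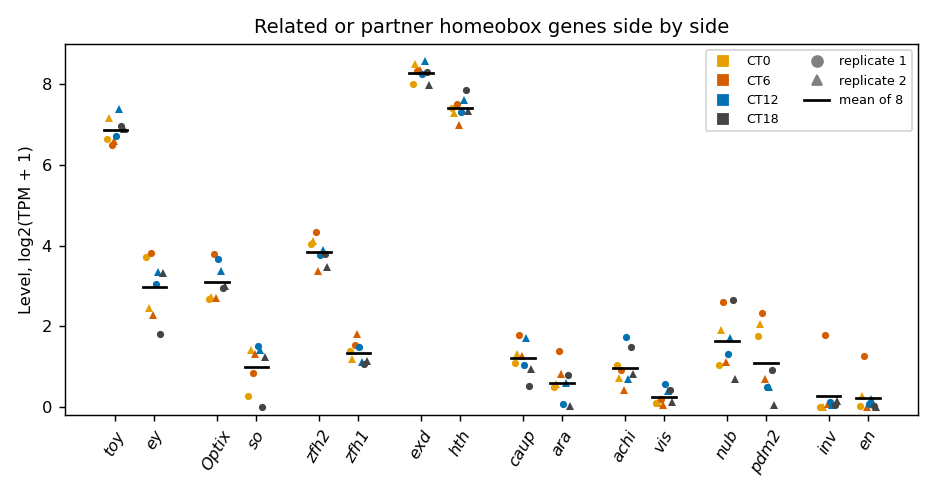
Levels of related genes, and of the partners exd and hth, as log2(TPM + 1). Each point is 1 library, coloured by time and shaped by replicate number, and the bar is the mean of 8. The toy, Optix and zfh2 points lie above those of ey, so and zfh1 in all 8 libraries, and the inv and en points lie near 0 except in CT6 replicate 1.

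The Hox genes were read at low levels. Dfd, a head Hox gene, was the highest of them, with 3.97 and 2.05 TPM at CT0, 2.45 and 1.295 TPM at CT6, 0.537 and 1.52 TPM at CT12 and 0.513 and 0.469 TPM at CT18. Scr, lab and pb averaged 0.522, 0.504 and 0.450 TPM. Antp had counts in 4 of 8 libraries, and abd-A had 1 estimated count over all 8. Ubx and Abd-B averaged 0.0720 and 0.00925 TPM.

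Detected members were spread over all chromosomes read. All 4 members on chromosome 4 (toy, onecut, zfh2 and ey) were detected. Elsewhere the counts were 3 of 5 on 2L, 4 of 12 on 2R, 3 of 6 on 3L and 3 of 8 on X. On 3R, where the Hox genes lie, 3 of 13 were detected. The share of all genes detected on each chromosome was not computed. The members were long genes whether detected or not. The median span was 20557 bases for detected members and 15777 bases for the other 28, against 2742 bases over the genes tested. The median effective transcript length was 2524 bases for detected members and 2575 bases for the other 28, against 1607 bases over the genes tested.

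A wider list held 51 other homeobox gene names, of which 50 genes were in the tables. Of these 50 genes, 11 were detected and 31 averaged under 1 TPM, whereas of the 48 members 20 were detected and 20 averaged under 1 TPM. The highest was pros, which encodes the Prospero factor of neuron and glia differentiation, at 86.1 ± 27.9 TPM, beside 90.6 ± 24.3 TPM for Lim1. After it came NK7.1 at 31.0 ± 5.98 TPM, CG18599 at 30.6 ± 11.6 TPM and CG11294 at 16.4 ± 8.79 TPM.

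Whether levels differed between duplicate sorts was asked with the replicate numbers in the labels, written here as repeat 2 and repeat 1, in a model that also held time. After a filter on low counts 41 of the 48 members were tested; Ubx, abd-A, Abd-B, ems, B-H2, inv and en were not. In edgeR's quasi-likelihood test 0 members and 0% of all 9999 genes passed an adjusted p of 0.05. At an unadjusted p under 0.05, 3 members (scro, onecut and mirr) were lower in repeat 2 and 0 were higher, beside 3.62% of all genes lower and 2.55% higher. DESeq2 called 1 member, scro, beside 1.17% of all genes, and limma-voom called 0.

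The scro level was lower in repeat 2 at each of the 4 times. On the TMM-normalized scale, which corrects for library size, repeat 2 had 23.8 CPM at CT0, 26.9 CPM at CT6, 25.1 CPM at CT12 and 45.3 CPM at CT18. The corresponding repeat 1 libraries had 72.4, 44.9, 77.3 and 53.1 CPM. The means were 30.2 ± 10.1 CPM in repeat 2 and 61.9 ± 15.4 CPM in repeat 1 (SD, n = 4 each), and CT18 of repeat 2 overlapped CT6 of repeat 1. The log2 difference was -1.05 ± 0.27 (SE). It did not pass in edgeR (adjusted p = 0.63; unadjusted p = 0.00486), whereas DESeq2 gave an adjusted p of 0.0331.

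Other values also differed between the replicate numbers. Library totals were 15006258 to 24680842 counts in repeat 2 and 27232908 to 29346348 counts in repeat 1, with no overlap. Glial markers summed to 85.1 to 157 TPM in repeat 2 and 136 to 210.0 TPM in repeat 1. Among them Gs2 had 19.2 to 53.4 TPM in repeat 2 and 46.3 to 104 TPM in repeat 1. Eaat1 went the other way, with 12.0 to 32.5 TPM in repeat 2 and 7.05 to 23.6 TPM in repeat 1. The lowest of the list, moody, was at or under 0.357 TPM in all libraries. The 13 clock neuron markers summed to 59860 to 116467 TPM in repeat 2 and 25994 to 78826 TPM in repeat 1. Pdf is among them and had the highest mean, at 42120 TPM. It had 36941 to 93400 TPM in repeat 2 and 292 to 51764 TPM in repeat 1. The remaining clock neuron markers did not move together. Dh31, the next highest, had 5564 to 14181 TPM in repeat 2 and 11228 to 17821 TPM in repeat 1. For cry the levels were 286 to 686 TPM in repeat 2 and 166 to 255 TPM in repeat 1. The 8 photoreceptor markers summed to 23.6 to 289.5 TPM in repeat 2 and 22.5 to 60.9 TPM in repeat 1. Only norpA of them was at 1 TPM or more in every library. Its levels went the other way, at 13.1 to 18.9 TPM in repeat 2 and 17.9 to 29.4 TPM in repeat 1. Arr2, with the highest mean, had 5.22 to 195 TPM in repeat 2 and 0.153 to 18.2 TPM in repeat 1. The 6 Kenyon cell markers summed to 439 to 1023 TPM in repeat 2 and 881 to 1011 TPM in repeat 1. This sum was lower in repeat 2 at 3 of the 4 times. Most of it was sNPF, also in the clock neuron list, at 304 to 961 TPM in repeat 2 and 770 to 919 TPM in repeat 1. The next highest, mub, was higher in repeat 2 at CT0 and CT12 and lower at CT6 and CT18. Hemocyte markers summed to 0.215 to 238 TPM in repeat 2 and 1.70 to 146 TPM in repeat 1. The part of these differences in the scro result was not tested.

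For onecut, repeat 2 had 107 CPM at CT0, 84.7 CPM at CT6, 118 CPM at CT12 and 62.5 CPM at CT18, and repeat 1 had 126, 171, 136 and 138 CPM. The groups did not overlap, at means of 93.1 ± 24.7 CPM in repeat 2 and 143 ± 19.8 CPM in repeat 1. The log2 difference of -0.65 ± 0.21 did not pass in edgeR (adjusted p = 0.78). For mirr, repeat 2 had 13.4, 14.5, 10.8 and 6.69 CPM at the 4 times in order, and repeat 1 had 12.5, 44.1, 17.5 and 16.7 CPM. Here repeat 2 was lower at 3 of the 4 times, and the log2 difference was -0.88 ± 0.33 (edgeR adjusted p = 0.78). In the opposite direction, toy averaged 280.4 ± 43.4 CPM in repeat 2 and 227 ± 46.0 CPM in repeat 1, a log2 difference of 0.32 ± 0.16 (edgeR adjusted p = 0.81).

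**Figure D3:**
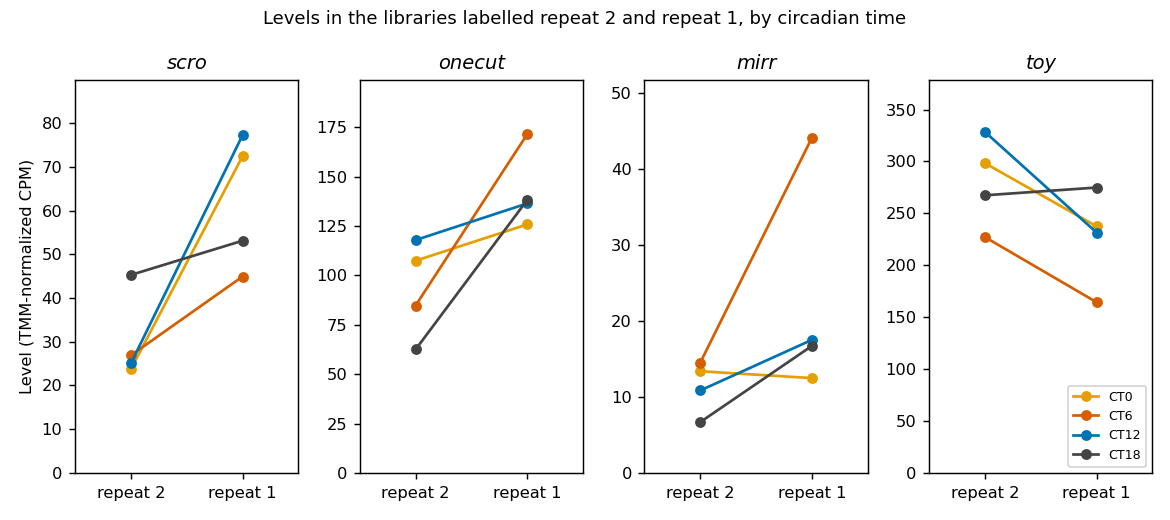
TMM-normalized CPM of scro, onecut, mirr and toy in the repeat 2 and repeat 1 libraries, joined by a line within each time. All 4 scro and onecut lines go up to repeat 1, the CT6 line of mirr reaches 44.1 CPM, and 3 of 4 toy lines go down.

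Groups that did not overlap are a looser count. All repeat 2 libraries lay below all repeat 1 libraries for 2 of 41 tested members, oc and onecut, beside 2.89% of all genes, and above them for 0, beside 2.50%. Without CT6 replicate 1, the library that stood apart, the lower count was 5 (oc, acj6, onecut, scro and achi), beside 7.97% of all genes, and the higher count stayed at 0, beside 6.10%. The acj6 level averaged 3.98 ± 1.09 CPM in repeat 2 and 9.42 ± 6.90 CPM in repeat 1 (log2 difference -0.998 ± 0.54; edgeR adjusted p = 0.83), and its difference ran from -1.47 to -0.64 when single libraries were left out, nearest 0 without either CT12 library.

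The size of the difference between the 2 libraries of a time varied widely among members. Averaged over the 4 times, the absolute log2 difference of the detected members had a median of 0.449, beside 0.392 over the 7150 detected genes that were tested. It was smallest for hth at 0.216, or 1.16-fold, followed by zfh2 at 0.247, ct at 0.259 and otp at 0.261. The other 3 of the most abundant members lay below that median for all detected genes, with exd at 0.370, Lim1 at 0.367 and toy at 0.335.

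The 5 detected members with the largest duplicate difference were ey at 1.23, scro at 1.05, Lim3 at 1.04, Dr at 0.975 and mirr at 0.926. These correspond to 1.90-fold to 2.35-fold between libraries meant to be alike. For ey the direction varied: repeat 2 was lower than repeat 1 at CT0 and CT6, by 1.48 and 1.33 log2 units, and higher at CT12 and CT18, by 0.29 and 1.83. For Lim3 repeat 2 had 6.37 CPM at CT0, 7.66 CPM at CT6, 6.78 CPM at CT12 and 13.4 CPM at CT18, and repeat 1 had 7.87, 21.9, 19.0 and 7.26 CPM. At matched abundance, the 6 members with a mean log2 CPM of 3 to 5 had a median difference of 0.907, beside 0.482 over 2266 genes in that band. In the band of 5 to 7 the 5 members had 0.286, beside 0.350 over 2899 genes. Members under the detection threshold differed by up to 3.48 log2 units (vnd).

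**Figure D4:**
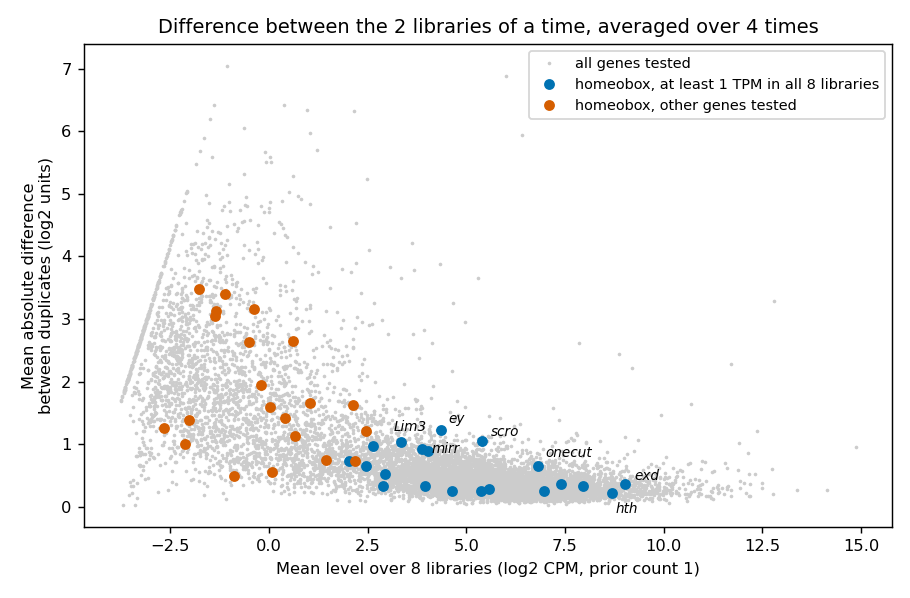
Mean absolute log2 difference between the 2 libraries of a time (y) against mean log2 CPM (x) for all genes tested (grey), detected homeobox genes (blue) and the other homeobox genes tested (orange). The abundant members exd and hth lie low at 0.370 and 0.216, and ey and scro lie at 1.23 and 1.05.

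Over the 4 circadian times, 0 members passed edgeR's test for any change, beside 0% of all genes, and 0 passed for a 24-hour harmonic, beside 0%. DESeq2 and limma-voom also called 0 members in both tests, beside 0.370% of all genes in each DESeq2 test and 0% in limma-voom. For any change, however, DESeq2 gave no adjusted p for many members, which therefore could not be called. These included the detected tup, bsh, Dr, vvl and zfh1, and also Antp, pb, Dfd and pdm2. For the harmonic, DESeq2 gave no adjusted p for Antp, repo and vis. With no filter, edgeR called 0 of the 48 members in any of its 5 tests, beside 1.84% of genes for any change, 1.85% for the harmonic, 0.748% for CT12 minus CT0, 1.42% for CT18 minus CT6 and 0.0296% for repeat 2 minus repeat 1. At an unadjusted p under 0.05, the harmonic picked out 3 of 41 members (pdm2, otp and Dfd), beside 5.17% of all genes, and the test for any change 1 (Antp), beside 3.30%. Over the detected members, the range of the 4 time means had a median of 0.715 log2 units, beside a median spread between duplicates of 0.386 (SD). Over all detected genes these medians were 0.498 and 0.328. A range of 4 means and an SD of single libraries are unlike measures. The range is above 0 even without an effect of time, so the 2 medians do not size such an effect.

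Among the detected members, otp had the smallest p for the harmonic. Its level was 21.7 and 21.8 CPM at CT0, 35.4 and 36.9 CPM at CT6, 32.9 and 19.1 CPM at CT12 and 17.6 and 20.1 CPM at CT18. Both CT6 libraries were the highest of the 8, which also held for ara among the members, beside 3.61% of all genes. The fitted harmonic had an amplitude, from mean to peak, of 0.49 ± 0.17 log2 units (SE) and a peak at 7.03 h (edgeR adjusted p = 0.87). CT18 was lower than CT6 by a log2 difference of -0.94 ± 0.33, which did not pass (edgeR adjusted p = 0.51). With each library's trend of counts against gene length removed, this difference was -0.58. The Spearman correlations of that trend were -0.533 and -0.563 in the CT18 libraries, against 0.684 and -0.223 in the CT6 libraries, so CT6 replicate 1 alone of these 4 was positive. The amplitude of otp was 0.31 with the trend removed.

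At CT12 the paired-like gene hbn and the LIM gene tup had their highest values in both libraries. The hbn level was 37.2 and 26.2 CPM at CT12, against 14.1 and 8.40 CPM at CT0, while CT6 had 19.8 and 10.6 CPM and CT18 had 9.04 and 23.9 CPM. Its CT12 mean of 31.7 ± 7.84 CPM was 2.82 times the CT0 mean of 11.2 ± 4.01 CPM (SD, n = 2 each), a log2 difference of 1.50 ± 0.54 that did not pass (edgeR adjusted p = 1). The tup level was 15.8 and 11.8 CPM at CT12, against 7.51 and 5.74 CPM at CT0, with 6.08 and 5.90 CPM at CT6 and 4.73 and 6.79 CPM at CT18. The log2 difference of tup, CT12 minus CT0, was 1.06 ± 0.50 (edgeR adjusted p = 1).

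Low-count genes shared this pattern: Antp and eve also had both CT12 libraries above the other 6. Together with hbn and tup that made 4 of 41 members, beside 1.84% of all genes. Antp had 45 and 31.9 estimated counts at CT12, against 0 and 0 at CT0, with 0 and 4 at CT6 and 3.5 and 0 at CT18. Antp shares 3978 exon bases on the same strand with CG46458, which averaged 0.022 TPM. Reads in those shared bases may belong to either gene. The CT12 values of eve were 0.992 and 1.03 CPM and its CT18 values 0.834 and 0.934 CPM.

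By the highest of the 4 time means of log2 CPM, the 20 detected members split into 1 with its highest mean at CT0, 6 for CT6, 11 for CT12 and 2 for CT18. Among all genes tested, CT0 took 18.8%, CT6 29.9%, CT12 18.2% and CT18 33.1%. Among all detected genes the shares were 17.2% for CT0, 30.0% for CT6, 16.3% for CT12 and 36.5% for CT18. The 11 members at CT12 were exd, toy, Lim1, onecut, ap, hbn, Optix, ey, ct, Dr and tup. By means of CPM without the log, 2 members had their highest mean at CT0, 8 did so for CT6, 9 for CT12 and 1 for CT18, beside 16.6%, 31.4%, 15.7% and 36.3% of all detected genes in the same order. On that scale onecut and ct were highest at CT6 and ey at CT0, and scro was highest at CT12. Many of these margins were small: exd averaged 531 CPM at CT0, 539 CPM at CT6, 550.1 CPM at CT12 and 489 CPM at CT18. The count was 7 without CT0 replicate 1, 7 without CT6 replicate 2, and 8 with the length trend removed.

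Comparing the start of subjective night with the start of subjective day, CT12 minus CT0, 0 members passed in edgeR, beside 0% of all genes. DESeq2 called 0 members, beside 0.120% of all genes. At an unadjusted p under 0.05, 2 members (hbn and Antp) were higher at CT12, beside 1.29% of all genes, and 0 were lower, beside 0.820%. Both CT12 libraries lay above both CT0 libraries for 6 of 41 members (Antp, hbn, Optix, eve, tup and vis), beside 12.0% of all genes. They lay below for 6 (Dfd, lab, pb, pdm2, bsh and zfh2), beside 13.1%. Optix averaged 20.7 ± 3.47 CPM at CT12 and 11.5 ± 0.0882 CPM at CT0 (log2 difference 0.86 ± 0.39), and its 2 CT0 libraries were the lowest of the 8, beside 1.19% of all genes. Levels of zfh2 averaged 120 ± 6.03 CPM at CT12 and 154 ± 1.76 CPM at CT0 (log2 difference -0.36 ± 0.25), and its CT0 libraries were the highest of the 8, which among the members also held for pb, beside 2.12% of all genes.

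Between the middle of subjective night and of subjective day, CT18 minus CT6, 0 members passed in edgeR, beside 0% of all genes. DESeq2 called 0 members here too, beside 0.520% of all genes. At an unadjusted p under 0.05 otp was lower at CT18, beside 6.89% of all genes, and 0 members were higher, beside 2.76%. Both CT18 libraries were above both CT6 libraries for 7 of 41 members (pb, toy, acj6, scro, eve, hth and achi), beside 20.1% of all genes, and below for 7 (Dfd, otp, pdm2, Lim1, ara, caup and zfh1), beside 21.6%. The hth level averaged 489 ± 103 CPM at CT18 and 358 ± 4.47 CPM at CT6, a log2 difference of 0.45 ± 0.25 (edgeR adjusted p = 0.54) that became 0.82 with the length trend removed. For toy the means were 271 ± 5.28 CPM at CT18 and 196 ± 44.4 CPM at CT6, a log2 difference of 0.47 ± 0.27 (edgeR adjusted p = 0.55), or 0.74 with the trend removed. Both CT6 libraries were the lowest of the 8 for pb, toy, eve and hth, beside 2.45% of all genes. For 0 members were both CT18 libraries the highest, beside 7.29%, or both CT12 libraries the lowest, beside 1.82%. The mirr difference of -1.32 ± 0.59 (edgeR adjusted p = 0.51) ran from -2.13 to -0.31 when single libraries were left out, and the value nearest 0 was that without CT6 replicate 1.

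Among the low members, the Hox gene Dfd and the POU gene pdm2 had their highest means at CT0. Dfd had 9.32 and 4.47 CPM at CT0, 4.52 and 3.28 CPM at CT6, 1.13 and 3.23 CPM at CT12 and 1.11 and 1.09 CPM at CT18, and both CT18 libraries were its lowest, which also held for caup, beside 6.88% of all genes. Its harmonic amplitude was 1.24 ± 0.43 log2 units with a peak at 3.17 h (edgeR adjusted p = 0.87). For pdm2 the values were 5.21 and 8.02 CPM at CT0, 7.71 and 2.05 CPM at CT6, 1.57 and 0.775 CPM at CT12 and 1.67 and 0.156 CPM at CT18. The pdm2 amplitude was 1.72 ± 0.58 log2 units with a peak at 2.94 h (edgeR adjusted p = 0.87), and it was 2.76 without CT18 replicate 1. On the log2(TPM + 1) scale the amplitudes were 0.67 for Dfd and 0.87 for pdm2. The pb level was 3.69 and 3.33 CPM at CT0, against 0.145 to 1.50 CPM in the other 6 libraries.

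**Figure D5:**
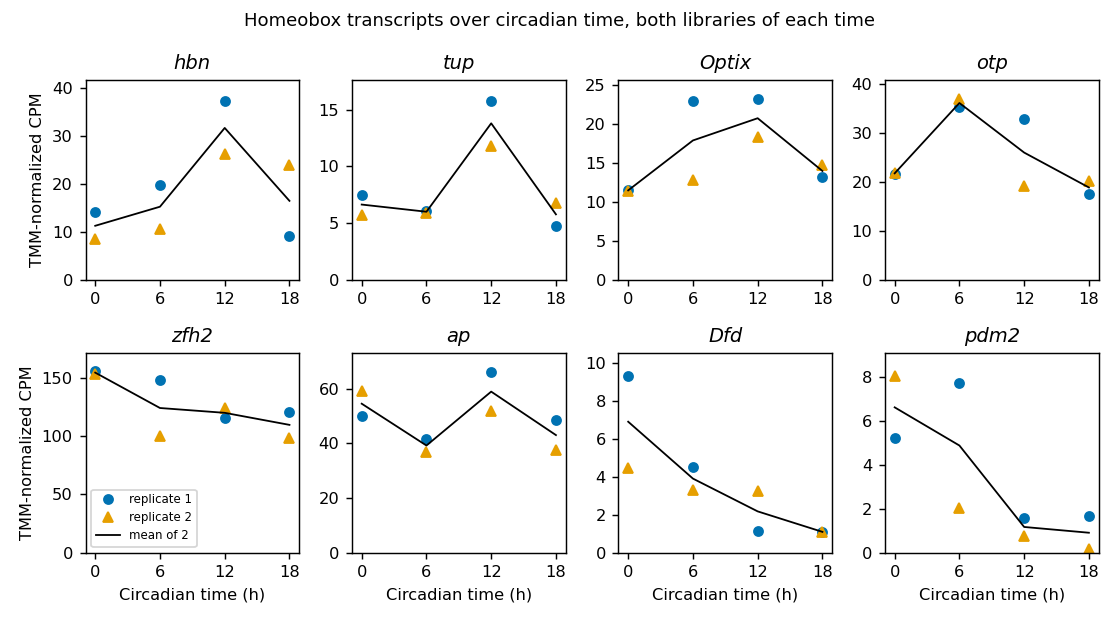
TMM-normalized CPM over circadian time for 8 homeobox genes. Points are single libraries, shaped by replicate number, and the line joins the means of 2. For hbn and tup both CT12 points are the highest, for otp both CT6 points are, and for zfh2 both CT0 points are; none of these genes passed the test over all genes.

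Levels of exd and ct varied less between times than between duplicates. The range of the 4 time means was 0.166 log2 units for exd and 0.0904 for ct, below their spread between duplicates of 0.274 and 0.238 (SD). For Lim1 the range was 0.363 beside a spread of 0.373, for onecut 0.448 beside 0.552 and for scro 0.496 beside 0.853. Among the 30 other homeobox genes tested, 0 passed in edgeR in any of the 5 tests after the filter, and DESeq2 called Lmx1a for any change over the times, at 3.50 to 43.6 TPM. With no filter, edgeR called lbl, exex and Lmx1a, 3 of 42 genes, for any change and for the harmonic. It also called lbl and exex for CT12 minus CT0 and Lmx1a for CT18 minus CT6. The exex level was 0 in 4 libraries and the lbl level was 0 in 2.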

How the data were processed

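Polyadenylated RNA of sorted cells was read in 8 libraries, grouped by the circadian time in the labels. Per the file headers, the deposited gene tables hold a length, an effective length, a TPM value and an estimated count for each gene; the deposited estimated counts are not normalized, and the deposited TPM values sum to 1000000 per library. The submitters' processing notes name DRAGEN, Salmon and dm6. The sources used here do not give their roles and versions, the annotation or the use of strand. No column of another sample was present (0 unused).

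Expected counts were rounded. Genes were kept by filterByExpr (minimum count 10, times as groups), leaving 9999 of 13499 genes with a count. The test was edgeR's quasi-likelihood F-test with TMM factors, fitted to the 8 libraries with a term per time (4 residual and 5.43 prior degrees of freedom, median biological coefficient of variation 0.311) and Benjamini-Hochberg adjustment over all genes at 0.05; replicate number was added for repeat 2 minus repeat 1. The 24-hour harmonic used CT0 minus CT12 and CT6 minus CT18. Standard errors were derived from the F statistic, as the size of a difference or amplitude divided by the root of F times its degrees of freedom (1 for a difference, 2 for an amplitude). Duplicate differences are of log2 CPM with a prior count of 1. The totals of 15006258 to 29346348 counts bear on counting error, whereas the tests rest on the spread between libraries.

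Members and lists were chosen with earlier results of these data known. Values in every library were planned for detected members among the 20 with the highest mean TPM and for pairs of related genes with 1 detected. The same held for members with the smallest p in 3 tests or the largest duplicate difference. Of these, ct, pb, acj6, so and zfh1 are given by mean or range only, with single libraries in part. Naming of genes in counts of non-overlapping groups followed sight of their values. Coordinates and transcript lengths were taken from Ensembl (BDGP 6.54, release 115); the authors may have used another annotation. Other settings tried were RLE factors, dropping the filter or setting it to 5 CPM in 2 libraries, DESeq2, limma-voom, limma on log2 TPM with pseudocounts of 1 and 0.1, a replicate block, leaving out each library, a prior count of 5, and taking out, per library, the lowess trend (span 0.3) of counts on effective length. Tools were R 4.3.3, edgeR 4.0.16, limma 3.58.1, DESeq2 1.42.0, Python 3.11.15, pandas 2.3.3, numpy 2.4.6 and matplotlib 3.10.9.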

Additional observations from a re-analysis of the deposited data

How the results depend on the processing

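Of the results that count or summarise genes, 84 values under the alternatives stayed near the main value and 29 moved. Of the values for single members, 411 kept their direction and side of the threshold and 0 turned round. The remaining 1 (scro in DESeq2, adjusted p 0.0331) newly passed. Sizes of any change and harmonic amplitudes cannot be negative, so only the differences between times or replicate numbers could turn round. A missing DESeq2 adjusted p was counted as not passing. In edgeR 0 genes were called in each of the 5 tests. Without the filter on low counts the calls over all genes were 249 for any change over the times, 250 for the harmonic, 101 for CT12 minus CT0, 192 for CT18 minus CT6 and 4 for repeat 2 minus repeat 1, and DESeq2 gave 37, 37, 12, 52 and 117 in the same order. Limma on log2(TPM + 0.1) called 2 genes for repeat 2 minus repeat 1. Leaving out each library in turn gave 0 to 5 calls for any change, 0 to 1 for the harmonic, 0 to 1 for CT12 minus CT0, 0 to 1 for CT18 minus CT6 and 0 to 1 for repeat 2 minus repeat 1; the remaining library of a time was then assumed to vary like the others. The cause of these moves was not tested. Detected members numbered 11 at 5 TPM in all 8 libraries and 41 by the count filter. Chosen after seeing the data, leaving out CT6 replicate 1 gave 5 members below in all repeat 2 libraries, and the count of detected members highest at CT12 ran from 7 (without CT0 replicate 1 or CT6 replicate 2) to 10. Deviations of repeat 1 from the time means correlated between times at -0.0661 to 0.230 over genes. These correlations cannot tell whether a replicate number marks libraries that share a batch. With the replicate block, 0 genes were called in each of the 4 tests over time. With 2 libraries per time, low counts (Antp, vnd, Rx) limit what can be detected.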

Other observations

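The deposited length of a gene differed between libraries for 29 of the tested members. For 2 members it separated the replicate numbers. The toy length was 2558 to 2737 bases in repeat 2 and 2854 to 2953 bases in repeat 1, with no overlap; lengths were lower throughout repeat 2 for this 1 member of 29, beside 2.28% of the 5213 tested genes whose length varied. The onecut length was 6742 bases in all 4 repeat 2 libraries and 6419 to 6576 bases in the repeat 1 libraries, higher throughout repeat 2, beside 1.40% of genes. The annotation lists 3 transcripts of toy, toy-RA with 2287, toy-RC with 3870 and toy-RD with 3921 spliced bases, and 2 of onecut, onecut-RA with 6742 and onecut-RB with 6050. The deposited onecut length in repeat 2 thus equals that of onecut-RA. Transcript counts were not analysed here, and the sources used here do not give how the lengths were made.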
